A study of Mus musculus with 6 samples.

Results

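The T-cell receptor (TCR) complex and its coreceptors were examined in H22 tumours through 10 genes chosen by symbol: the CD3 chain genes Cd3d, Cd3e, Cd3g and Cd247, the coreceptor genes Cd4, Cd8a and Cd8b1, and the T-cell surface receptor genes Cd2, Cd5 and Cd6. They are 10 of the 21720 gene symbols with deposited values, and 10 of 10 passed the filter on low counts. H22 is a mouse hepatocellular carcinoma cell line, and its cells were grown under the skin of female BALB/c mice aged 6 to 8 weeks, labelled wild type. From a tumour volume of about 50 mm3, the control group received 0.5% carboxymethyl cellulose sodium by gavage and the luteolin group received the flavonoid luteolin at 200 mg/kg, in a volume of 0.2 mL and daily for 21 days. RNA-seq of whole tumours gave 3 libraries in each group, numbered as in the labels. Where 3 values of a group are given together, they stand in the order of replicates 1, 2 and 3.

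T lymphocytes recognise antigen through the TCR, whose variable chains bind a peptide held by an MHC molecule. The TCR chains have no signalling domain of their own, and the signal passes through the CD3 gamma, delta, epsilon and zeta chains, whose cytoplasmic tails are phosphorylated by the kinase LCK. CD8 binds MHC class I and marks most cytotoxic T cells, while CD4 binds MHC class II and marks helper and regulatory T cells. Both carry LCK to the receptor. CD2 is an adhesion and costimulatory receptor, and CD5 and CD6 are related scavenger-receptor proteins that tune the strength of TCR signals. The chains assemble into 1 complex, and their genes are switched on together in the T-cell lineage.

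Several of these genes lie side by side in the mouse genome (GRCm38). Cd3g (chr9:44969572-44980431, minus strand) and Cd3d (chr9:44981786-44987339, plus strand) start 1355 bp apart and are transcribed away from each other, and Cd3e (chr9:44998740-45009627, minus strand) follows. Cd8b1 (chr6:71322788-71337494) and Cd8a (chr6:71373427-71379173) lie in tandem on the plus strand, and Cd4 (chr6:124864692-124888221, minus strand) lies farther along chromosome 6. Cd5 (chr19:10717116-10739002) and Cd6 (chr19:10789341-10830058) are neighbours on the minus strand. Cd2 is at chr3:101275899-101287939 (minus strand) and Cd247 at chr1:165788681-165877277 (plus strand).

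RefSeq promoters were matched for 6 of the 10 genes (Cd3d, Cd3e, Cd3g, Cd247, Cd8a and Cd5). Since all 10 genes were higher under luteolin, the 250 bases before the RefSeq start are shown for the divergent pair Cd3g and Cd3d, for Cd3e and for Cd8a, 5′ to 3′ on the strand of the gene, with matches to any of 6 searched motifs in capitals. All were read on both strands. For the ETS family of factors the string searched was ACAGGAAG. For the RUNX family it was TGTGGTT, and for the GATA family it was AGATAAG. For E-box factors one string was CAGCTG while the other string was CAGGTG. For the TCF and LEF family it was CTTTGAA. Matches did not overlap each other in these windows.
Cd3g, chr9:44980432-44980681, minus strand: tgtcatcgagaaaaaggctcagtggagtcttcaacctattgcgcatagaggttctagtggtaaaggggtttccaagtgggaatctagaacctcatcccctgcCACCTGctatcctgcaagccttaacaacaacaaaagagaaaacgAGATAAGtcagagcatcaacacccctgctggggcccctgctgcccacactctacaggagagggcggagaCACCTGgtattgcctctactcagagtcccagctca
Cd3d, chr9:44981536-44981785, plus strand: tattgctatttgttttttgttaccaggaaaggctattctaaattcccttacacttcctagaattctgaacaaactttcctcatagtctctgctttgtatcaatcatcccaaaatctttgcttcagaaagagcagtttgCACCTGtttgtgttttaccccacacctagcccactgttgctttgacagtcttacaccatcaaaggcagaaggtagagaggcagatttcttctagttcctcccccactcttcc
Cd3e, chr9:45009612-45009861, minus strand: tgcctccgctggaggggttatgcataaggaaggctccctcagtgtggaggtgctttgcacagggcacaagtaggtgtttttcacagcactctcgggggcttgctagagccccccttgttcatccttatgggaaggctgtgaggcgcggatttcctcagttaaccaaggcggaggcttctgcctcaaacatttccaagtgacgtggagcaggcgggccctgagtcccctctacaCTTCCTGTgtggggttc
Cd8a, chr6:71373177-71373426, plus strand: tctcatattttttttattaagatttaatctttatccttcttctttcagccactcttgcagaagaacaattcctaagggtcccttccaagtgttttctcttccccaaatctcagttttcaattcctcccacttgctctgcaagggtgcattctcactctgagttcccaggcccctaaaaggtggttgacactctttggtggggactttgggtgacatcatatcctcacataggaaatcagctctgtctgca
The E-box CAGGTG was found in 4 of the 6 promoters (Cd3d, Cd3g, Cd247 and Cd5), while 17.2% of all 32851 RefSeq promoters of this length held it. Cd3e held the ETS motif, present in 2.9% of all promoters, between 17 and 10 bases before its start. Cd3g also held the GATA motif, present in 2.74% of all promoters. The Cd8a window held none of the 6 letter strings, and the first E-box string, the RUNX string and the TCF and LEF string were in 0 of the 6 windows, against 13%, 4.4% and 4.46% of all promoters. These matches describe the letters only.

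Cd3e and Cd8a are also the 2 genes of this complex for which the study designed qRT-PCR primers, shown here because they mark the stretch of each transcript measured outside the sequencing.
Cd3e forward: gtgtagagttgacgtgccct
Cd3e reverse: agtagccactgtcctcgact
Cd8a forward: cggattggacttcgcctgt
Cd8a reverse: ctagcggcctgggacatttg
The Cd3e pair spans 132 bp of coding sequence inside exon 5 (chr9:45002195-45002326), and the Cd8a pair spans 140 bp of coding sequence from exon 3 to the junction of exons 4 and 5 (chr6:71374769-71376867), on GRCm38. Each pair matched the transcripts of its own gene and no other by exact sequence. The qRT-PCR values themselves were not analysed here.

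Total counts ranged from 61081637 to 80442954 per library, and the genes of the TCR complex were read from few of them, from 26 counts (Cd5 in control replicate 3) to 1476 (Cd4 in luteolin replicate 2), in units that need not be single read pairs. Luteolin replicate 2 stood apart from the other libraries. Its keratinocyte list, 10 skin genes with Krt14 and Krt10 at the highest mean level, summed to 9020 CPM, against 411 and 20.3 CPM in luteolin replicates 1 and 3 and 13.9 to 18.5 CPM in the controls. Results are therefore also given without it. The hepatoma label was checked with 10 liver and hepatoma genes. Afp, the fetal liver protein, had 43.4 to 66.7 CPM in the controls and 32.7 to 41.8 in the luteolin group, and Trf, which encodes transferrin, had 294 to 347 and 122 to 283. Alb, the albumin gene, had 3.06, 60.3 and 0.868 CPM in the controls and 133, 26 and 31.9 CPM under luteolin. Of the 8 tested genes of the list 6 had a positive log2 fold change, with a median of 1.60. The liver regulator Hnf4a lay at or under 0.327 CPM in every library. Gpc3, with 0.633 to 1.30 CPM in the controls and 3.13 to 9.34 in the luteolin group, had the smallest p of that list (log2 fold change 2.73, standard error 0.55, adjusted p = 0.0665 from edgeR).

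The comparison asks whether the genes of the TCR complex and its coreceptors differ between luteolin and control tumours. Each of the 10 had its 3 luteolin libraries above its 3 control libraries, by 3.10-fold (Cd4) to 5.68-fold (Cd8a) in the fit. Over all tested genes, 15.9% lay above every control library in this way. At the study's threshold 10 of 10 genes rose, where 11.3% of all tested genes did. With adjustment over all genes in edgeR's quasi-likelihood fit (adjusted p under 0.05), 1 of 10 rose, Cd8a, where 1.34% of all tested genes did, and the other 9 had adjusted p values from 0.0552 (Cd8b1) to 0.110 (Cd4). The median log2 fold change was 2.21 over the 10 genes and -0.0073 over all tested genes. In RNA from whole tumours, a change in the number of T cells and a change in the RNA per T cell cannot be told apart.

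The 10 calls at the study's threshold were made again with each library left out in turn and under every other setting tried. Over these fits, 7.52% to 13.6% of all tested genes were called higher at that threshold. The adjusted call was less stable: DESeq2 and voom called 10 of 10 genes, where they called 8.67% and 12.6% of all tested genes higher. In edgeR 0 of 10 were called without any 1 of the controls or without luteolin replicate 1, where 0% of all tested genes were called higher. Without luteolin replicate 3 it was 0 of 10 against 0.993% of all genes, and without luteolin replicate 2 it was Cd8a alone (adjusted p = 0.0257) against 1.82%. With the replicate number as a block, 0 of 10 and 0.227% of all genes passed. The unadjusted p, which is part of the study's threshold, was under 0.05 for 10 of 10 genes in each of these fits.

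**Figure D1:**
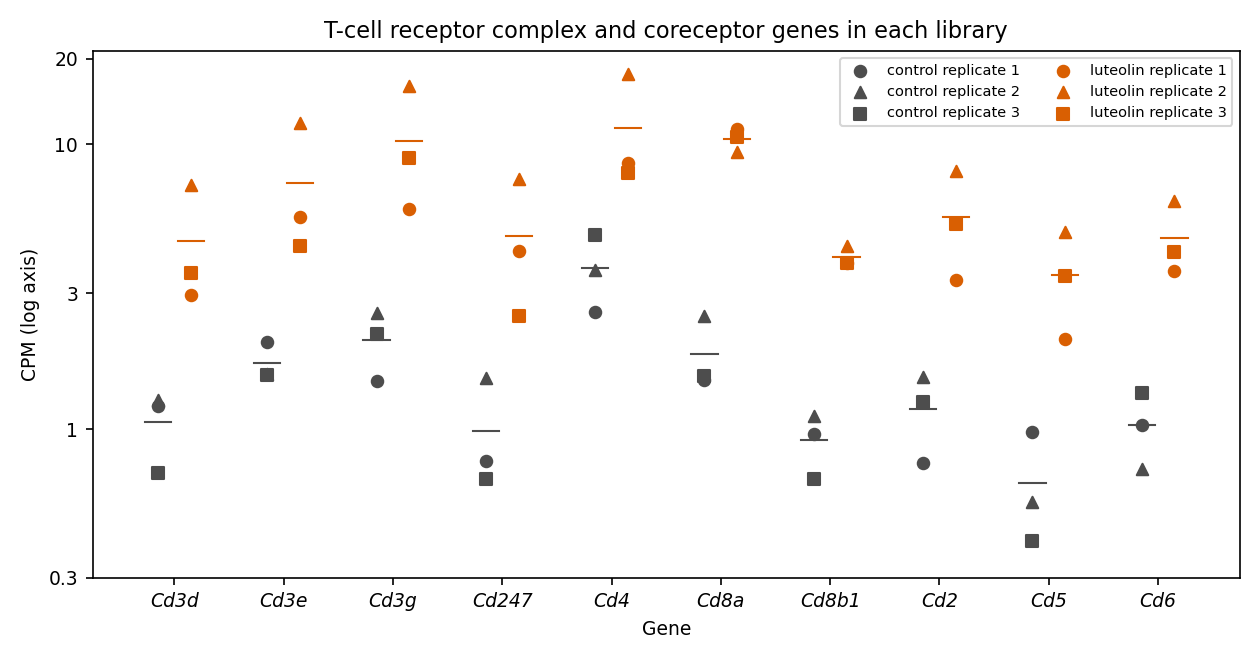
CPM (log axis) of the 10 genes in each of the 6 libraries, with control libraries in grey, luteolin libraries in orange, a marker shape for each replicate number and a line at each group mean. All luteolin points lie above all control points of the same gene, and luteolin replicate 2 is the highest library for 9 of the 10 genes, Cd8a being the exception.

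Of the CD3 chain genes, Cd3e encodes the epsilon chain, which pairs with both the gamma and the delta chain. Cd3e had 2.02, 1.56 and 1.55 CPM in the controls and 5.57, 11.9 and 4.41 CPM under luteolin. The controls lay close together and luteolin replicate 2 was far above the other libraries. Its log2 fold change was 2.09 (SE 0.47, adjusted p 0.0831) and 1.56 without luteolin replicate 2. Cd3d, the delta chain gene, had 1.20, 1.27 and 0.698 CPM in the controls and 2.96, 7.23 and 3.52 CPM under luteolin. Again the groups did not overlap, and the lowest luteolin library had 2.33 times the CPM of the highest control. The log2 fold change of Cd3d was 2.11 (SE 0.51, adjusted p 0.0961).

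Cd3g, the gamma chain gene, had 1.47, 2.55 and 2.16 CPM in the controls and 5.93, 16.1 and 8.97 CPM under luteolin. Luteolin replicate 2 was again far above the rest, and the groups did not overlap. Its log2 fold change of 2.33 (SE 0.47, adjusted p 0.0659) was the largest of the CD3 genes. Cd247 encodes the zeta chain, which also serves activating receptors of NK cells. It had 0.773, 1.51 and 0.667 CPM in the controls and 4.23, 7.56 and 2.50 CPM under luteolin. Control replicate 2 and luteolin replicate 3 came nearest to each other, at a ratio of 1.65. The log2 fold change of Cd247 was 2.27 (SE 0.58, adjusted p 0.103), with the widest standard error of the 10 genes. Of the exonic bases of Cd247, 56.4% also lie in exons of Pou2f1 on the opposite strand, and where counting ignored strand, reads of both genes could not be separated. Pou2f1 had 62.6 to 74.8 CPM in the controls and 42.9 to 64.9 in the luteolin group, with a log2 fold change of -0.30 (adjusted p = 0.445), and the values of Cd247 are uncertain. Cd3e shares 3.31% of its exonic bases with the antisense gene Gm48719. Summed over the CD3 genes, the level was 5.47, 6.89 and 5.07 CPM in the controls and 18.7, 42.8 and 19.4 CPM under luteolin.

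Cd8a encodes the CD8 alpha chain, found in both the alpha-beta and the alpha-alpha form of CD8. Cd8a had 1.49, 2.49 and 1.54 CPM in the controls and 11.3, 9.43 and 10.6 CPM under luteolin. The luteolin libraries were close to each other, and their lowest value was 3.79 times the highest control, the widest gap among the 10 genes. The group means were 1.84 ± 0.563 and 10.4 ± 0.949 CPM (SD, n = 3 each), and the log2 fold change of 2.51 had a standard error of 0.34. With an adjusted p of 0.0331, Cd8a was ranked 69 of the 14963 tested genes by p. Its log2 fold change stayed between 2.28 and 2.78 over 15 alternative settings, while its adjusted p in edgeR rose to between 0.0542 and 0.207 with a control library or luteolin replicate 1 or 3 left out, and to 0.0881 with the replicate block.

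Cd8b1, the CD8 beta chain gene of the conventional alpha-beta cytotoxic T cell, had 0.959, 1.11 and 0.667 CPM in the controls and 3.82, 4.39 and 3.82 CPM under luteolin. As with Cd8a, the luteolin libraries hardly differed. Its log2 fold change was 2.13 (SE 0.40, adjusted p 0.0552), and 5 of the 15 alternatives placed it under 0.05. Cd4 had the smallest fold change of the 10 genes. It had 2.58, 3.63 and 4.82 CPM in the controls and 8.60, 17.7 and 7.96 CPM under luteolin. The lowest luteolin library had 1.65 times the CPM of the highest control, the narrowest gap of the 10 genes, with that of Cd247 close to it. The log2 fold change of Cd4 was 1.63 (SE 0.43, adjusted p 0.110) and 1.19 without luteolin replicate 2.

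Cd2 had 0.758, 1.53 and 1.24 CPM in the controls and 3.35, 8.07 and 5.26 CPM under luteolin. Cd5 had 0.973, 0.556 and 0.403 CPM in the controls in the same order and 2.07, 4.94 and 3.44 CPM in the luteolin libraries. Cd6 had 1.03, 0.726 and 1.33 CPM in the controls and 3.59, 6.32 and 4.19 CPM in the luteolin libraries. For these 3 surface receptors no luteolin library overlapped a control, and luteolin replicate 2 was again the highest. Their log2 fold changes were 2.24 (Cd2), 2.43 (Cd5) and 2.19 (Cd6), with standard errors of 0.49, 0.56 and 0.44 and their adjusted p from edgeR was 0.0791, 0.0845 and 0.0659 in the same order. In the controls Cd5 had 68, 36 and 26 counts.

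**Figure D2:**
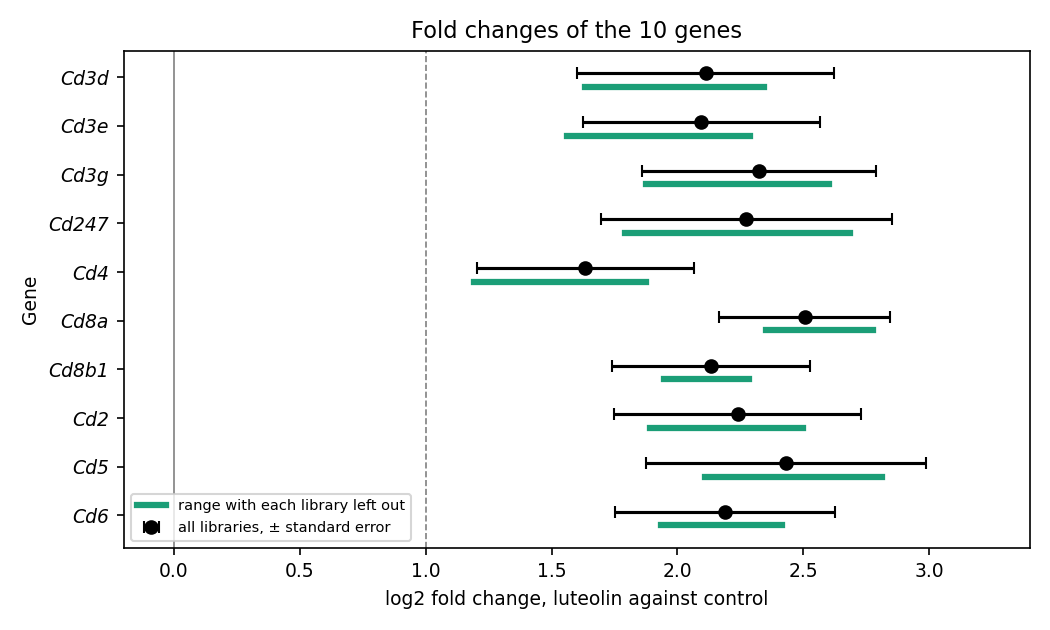
Log2 fold change of luteolin against control for each of the 10 genes (points, with the standard error as bars) and the range with each library left out in turn (green bars). The dashed line marks the study's fold change threshold of 1 on the log2 scale, and all ranges lie above it, from 1.19 for Cd4 to 2.81 for Cd5.

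Per kilobase of exon, the only scale on which these genes can be compared with each other, the order in the controls began with Cd4 at 0.912 ± 0.279 CPM per kb (SD, n = 3) and ended with Cd5 and Cd6 at 0.131 ± 0.0599 and 0.129 ± 0.0381. Between neighbours in that order, only Cd3e (0.419 ± 0.0654) lay above the next gene, Cd247 (0.185 ± 0.0866), in all libraries. Cd2, Cd3g, Cd8b1, Cd3d and Cd8a lay between Cd4 and Cd3e, from 0.675 to 0.505 CPM per kb, and their libraries overlapped. In the luteolin group Cd2, Cd3g, Cd8a, Cd4, Cd8b1 and Cd3d lay between 3.19 and 2.52 CPM per kb, followed by Cd3e at 1.79 ± 0.993, Cd247 at 0.894 ± 0.483, Cd5 at 0.707 ± 0.291 and Cd6 at 0.590 ± 0.180. No neighbours in the luteolin order were apart in all libraries. Exon lengths were those of all annotated exons, which a tumour need not use in full.

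The luteolin libraries were spread less for the CD8 genes than for the others, which is given as a description without a test. Relative to the control mean, Cd8a stood at 6.16, 5.14 and 5.76 under luteolin and Cd8b1 at 4.19, 4.81 and 4.18. Cd3e stood at 3.26, 6.98 and 2.58 and Cd4 at 2.34, 4.81 and 2.17. In luteolin replicate 2, Cd8a and Cd8b1 had 0.862 and 1.15 times the mean of luteolin replicates 1 and 3, while the other 8 genes had 1.62 to 2.39 times that mean. Over all tested genes the median of this ratio was 1.06, and 26.1% of genes reached 1.5. Luteolin replicate 3 had a keratinocyte sum of 20.3 CPM, near that of the controls. Its lymph node stroma sum was 18.6 CPM against 0.987 to 3.69 in the controls, and 16.5 CPM of it was Cxcl13. This library had 2.17 to 5.76 times the control mean for each of the 10 genes.

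**Figure D3:**
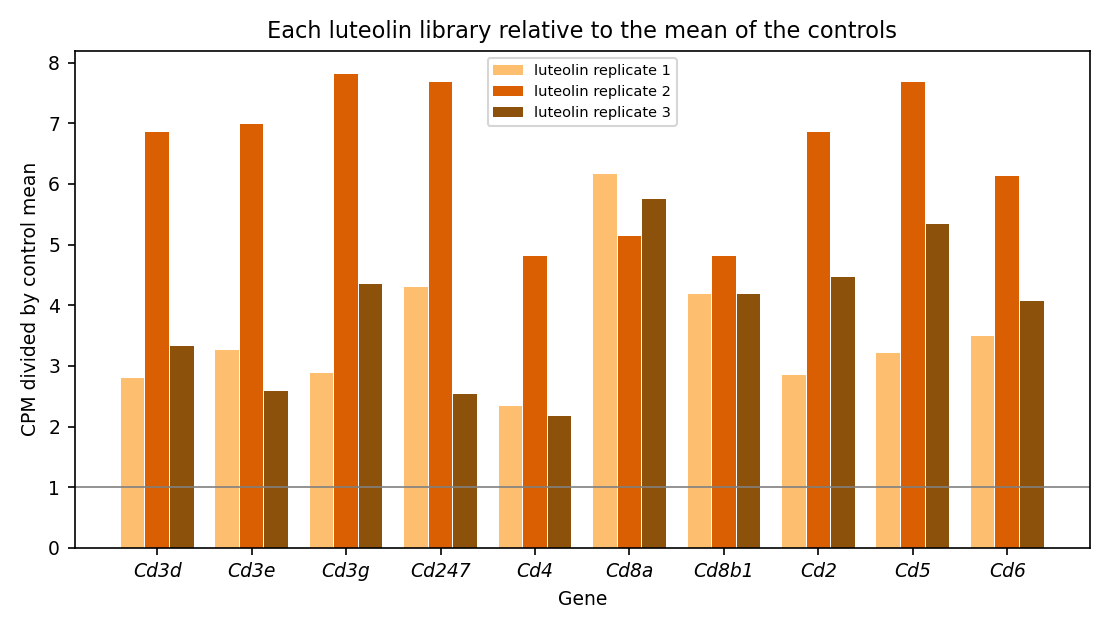
CPM of each luteolin library divided by the mean CPM of the 3 control libraries, for the 10 genes, with a grey line at 1. The bars of luteolin replicate 2 are the tallest for every gene but Cd8a, and the bars of Cd8a and Cd8b1 are of nearly even height.

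Whether the genes moved by the same amount was compared through 13 ratios within a library, from log2 CPM with a prior count of 2. The Cd8a to Cd4 ratio was 0.583, 0.688 and 0.322 in the controls and 1.31, 0.535 and 1.33 under luteolin. Luteolin replicate 2 lay among the controls and the remaining luteolin libraries lay above them. The difference in the mean log2 ratio was 0.95 (SE 0.55), with p = 0.3 in an exact two-sided permutation test and 0.65 after Benjamini-Hochberg adjustment over the 13 ratios. It was 1.39 without luteolin replicate 2. The Cd8a to Cd8b1 ratio ranged from 1.54 to 2.25 in the controls and from 2.14 to 2.95 in the luteolin group, a log2 difference of 0.40 (SE 0.23, exact permutation p = 0.3). Against Cd3e, the log2 differences were 0.07 for Cd3d, 0.27 for Cd3g, 0.24 for Cd247, 0.23 for Cd2, 0.44 for Cd5, 0.21 for Cd6, 0.57 for Cd8a and -0.38 for Cd4, with standard errors from 0.29 to 0.59 and exact permutation p values of 0.3 or more. All of these ratios overlapped between the groups. With 3 libraries a group the exact test cannot go below 0.1, so it could not pass 0.05 for a difference of any size.

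Relative to Ptprc, which encodes the CD45 phosphatase of all nucleated blood cells, the Cd8a ratio was 0.0329, 0.0445 and 0.0194 in the controls and 0.0900, 0.0639 and 0.0790 under luteolin. This was the only one of the 13 ratios whose groups did not overlap. Its log2 difference was 1.33 (SE 0.38), with p = 0.1, the smallest the exact permutation test allows, and 0.65 after adjustment. With a library left out, the number of ratios without overlap was 4 without control replicate 1 or luteolin replicate 2, 3 without luteolin replicate 3 and 2 without control replicate 2 or 3. The Cd3e to Ptprc ratio was 0.0196 to 0.0444 in the controls and 0.0331 to 0.0808 in the luteolin group (log2 difference 0.76, standard error 0.51, exact permutation p = 0.2). For Cd4 to Ptprc the ranges were 0.0565 to 0.0646 and 0.0595 to 0.120 (log2 difference 0.38, standard error 0.31, exact permutation p = 0.3). Ptprc itself had 46.1 to 80.6 CPM in the controls and 126 to 148 CPM in the luteolin group, a log2 fold change of 1.16 (SE 0.23, adjusted p = 0.0638 in edgeR's test).

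**Figure D4:**
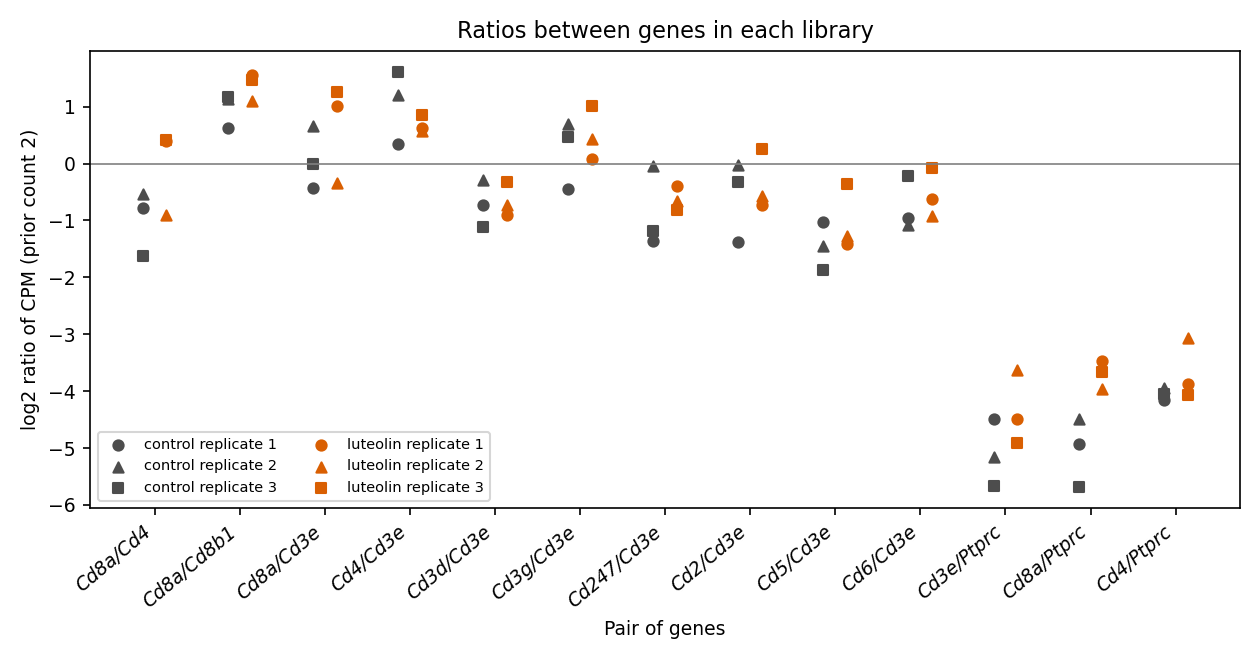
Log2 ratio of CPM between 2 genes in each library, for the 13 ratios compared, with control libraries in grey and luteolin libraries in orange. The points of the groups overlap for 12 ratios and are apart for Cd8a/Ptprc, and luteolin replicate 2 lies with the controls for Cd8a/Cd4.

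The proteins that pass on the TCR signal were covered by a list of 22 genes. Of these, 14 rose at the study's threshold and 0 fell, and 5 rose at an adjusted p under 0.05, among them Lcp2, Fyn, Vav1 and Zap70. The adjusted count was 14 with DESeq2, 3 without luteolin replicate 3, and 0 with the replicate block or without luteolin replicate 1 or any 1 of the controls. The median log2 fold change of the list was 1.48, against 1.27 for a list of pan-leukocyte genes. Ptprc is in both lists. In the controls Lcp2, Fyn and Vav1 lay at 24.1 to 27.1, 10.5 to 12.2 and 15.9 to 17.6 CPM. Cd3e lay at 1.55 to 2.02 CPM there. Which cells the reads of this list came from was not tested, so its counts cannot be read as T-cell signalling alone. Lcp2, the adaptor SLP-76, had a log2 fold change of 1.43 (SE 0.20, adjusted p 0.0338), and the kinase gene Fyn of 1.51 (SE 0.23, adjusted p 0.0403). Zap70, the kinase that docks on phosphorylated CD3 tails, was chosen after its values were seen. It had 0.787, 0.741 and 0.372 CPM in the controls and 3.31, 6.51 and 5.76 CPM under luteolin. Its log2 fold change was 3.03 (SE 0.50, adjusted p 0.0437), above that of any CD3 gene. Of the TCR chain list, Trat1, a TCR-associated adaptor gene, was the gene with values, at 0 to 0.202 CPM in the controls and 0.0782 to 1.18 in the luteolin group (adjusted p = 0.369), and it passed the study's threshold when control replicate 3 was dropped (1 gene of the list). The constant-region genes of the TCR chains were not analysed here.

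Of the 8 genes for ligands of these receptors, 4 rose at the study's threshold, 0 fell and 0 passed at an adjusted p under 0.05. They were the MHC class II genes H2-Aa, H2-Eb1 and H2-Ab1, whose products bind CD4, and B2m, the light chain of MHC class I. The class II genes H2-Aa and H2-Eb1 had log2 fold changes of 1.27 and 1.44 (adjusted p = 0.0665 and 0.0710). Of the lineage regulators, 5 of 10 rose at the study's threshold and 0 fell. The count was 3 with DESeq2 and 4 to 6 with a library left out. Among the 5, Gata3 and Bcl11b had 69.1 and 47.1 CPM in luteolin replicate 2. In every other library they had at most 5.98 and 2.92 CPM. Tcf7 and Ets1, not among the 5, had log2 fold changes of -0.22 and 0.23. Runx3, a regulator of the CD8 lineage, had a log2 fold change of 1.43 (SE 0.30, adjusted p 0.0747) and Lef1 of 2.77 (SE 0.77, adjusted p 0.121), Lef1 at no more than 1.02 CPM in any library.

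Of 10 cytotoxic genes, 8 rose at the study's threshold and 2 at an adjusted p under 0.05, the chemokine gene Ccl5 (log2 fold change 3.05) and the granzyme gene Gzmb (2.86), each with an adjusted p of 0.0331. The 2 adjusted calls became 8 with DESeq2 and with voom, and 0 with the replicate block or without luteolin replicate 1 or any 1 of the controls. DESeq2 and voom each also called 1 gene of the list lower. With the GC content and length offsets, 1 gene fell at the study's threshold. Eomes, chosen after its values were seen, was lower under luteolin, at 36.1 to 51.3 CPM against 70.2 to 92.3 in the controls (log2 fold change -0.86, adjusted p = 0.0842 from edgeR). In the controls it lay far above Cd3e, at 1.55 to 2.02 CPM, and Gzmb, at 1.95 to 3.60 CPM. Which cells the Eomes reads came from was not tested, so its fall cannot be assigned to T cells. Of 8 regulatory T-cell genes, 8 rose at the study's threshold and 1 at an adjusted p under 0.05, the interleukin-2 receptor gene Il2ra (2.22, adjusted p = 0.0487). Ctla4 followed with 2.05 (adjusted p = 0.0598). Foxp3, chosen after its values were seen, had a smaller log2 fold change of 1.26 (adjusted p = 0.188 from edgeR). It lay at 1.54 to 2.22 CPM in the controls and 2.63 to 6.85 CPM under luteolin. The adjusted count was 0 with the replicate block, with no filter on low counts, and without luteolin replicate 1 or 3 or any 1 of the controls. The count of 8 at the study's threshold was less stable, at 4, 3 and 5 without control replicates 1, 2 and 3 and 4 without luteolin replicate 2. Of 6 tested genes of naive and recirculating T cells, 5 rose at the study's threshold, among them the interleukin-7 receptor gene Il7r (2.25, adjusted p = 0.118), and 3 without control replicate 2 or 3 or luteolin replicate 1 or 2. Of the gamma-delta and IL-17 list, 0 of 2 tested genes passed. It was 1 of 4 without luteolin replicate 1, 2 of 3 without luteolin replicate 3, and 0 of 3 without luteolin replicate 2, where 1 fell and the median log2 fold change went from 1.45 to -0.43. The list holds Sox13 (adjusted p = 0.360), and Il17a and Il23r were at or under 3 counts in every control.

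Several of the 10 genes are also used by other cells, such as Cd247 and Cd2 by NK cells, Cd5 by some B cells and Cd8a by type 1 dendritic cells, so markers of those cells were measured beside them. The 8 NK markers summed to 8.39 to 15.7 CPM in the controls and 33.0 to 68.2 in the luteolin group. Most of that sum was Il2rb, at 5.90 to 9.26 CPM in the controls and 18.2 to 52.0 CPM under luteolin. Which cells the Il2rb reads came from was not tested. Of 6 tested genes, 5 passed the study's threshold, led by Il2rb (log2 fold change 2.19, adjusted p = 0.0620) and Klrb1c (2.39, adjusted p = 0.0845), both from edgeR. Klra8 was at 0 in every library. The 7 B-cell markers summed to 3.25 to 5.16 and 6.79 to 25.6 CPM, with 2 of 6 at the study's threshold (Cd79b and Cd79a, with adjusted p of 0.139 and 0.187), and 1 without control replicate 1 or 3 or luteolin replicate 2 or 3. The defining marker Ms4a1 lay at or under 0.403 CPM in the controls. The 7 type 1 dendritic cell markers summed to 190 to 236 and 191 to 237 CPM, and most of that sum was Cadm1, at 167 to 193 CPM in the controls and 77.6 to 175 under luteolin. Without Cadm1, a sum taken after the values were seen, the other 6 markers came to 22.5 to 43.3 CPM in the controls. Under luteolin they came to 62.3 to 113 CPM, and the groups did not overlap. Most of this smaller sum was Irf8, at 12.8 to 38.3 CPM in the controls and 52.3 to 93.1 CPM under luteolin. Clec9a, at 0.143 to 1.92 and 0.782 to 2.70 CPM, overlapped between the groups, as did Tlr3, at 0.744 to 3.13 and 1.66 to 2.61 CPM. Of the 7 genes, 4 lay above every control, and 3 of 7 passed the study's threshold, among them Batf3 (1.80, adjusted p = 0.149) and Irf8 (1.28, adjusted p = 0.170), and 1 of 7 without luteolin replicate 2. Xcr1 lay at or under 0.558 CPM in the controls and at 0.657 to 2.09 in the luteolin group. The part of these cells in the values of Cd247, Cd2, Cd5 and Cd8a was not tested.

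Of 6 pan-leukocyte genes, 5 rose at the study's threshold and 1 without luteolin replicate 2. Their sum was 228 to 267 CPM in the controls and 477 to 712 in the luteolin group, and after Ptprc the smallest p was that of Laptm5 (1.09, adjusted p = 0.0747). Of 7 macrophage genes, 1 rose, Cd68 (1.16, adjusted p = 0.0331, with 0 adjusted calls with the replicate block, with the GC content and length offsets, and without luteolin replicate 1 or 3 or any 1 of the controls), and the next by p was Adgre1 (0.91, adjusted p = 0.0971). The sum was 757 to 974 against 1099 to 2029 CPM. The count was 2 without control replicate 1 or 3 and 4 without luteolin replicate 1. Of 6 plasmacytoid dendritic cell genes, 4 rose, with sums of 89.5 to 118 against 101 to 276 CPM, led by Ccr9 (2.66, adjusted p = 0.0620) and Ly6d (9.77, adjusted p = 0.103), which keratinocytes also express. The thymocyte markers Rag1 and Rag2 were at or under 3 counts in the controls, and the 2 tested genes of that list, Cd1d1 (2.26, adjusted p = 0.142) and Dntt (1.98, adjusted p = 0.216), passed the study's threshold, with 1 of them passing when control replicate 1 or 3 or luteolin replicate 1 or 2 was left out. The 6 lymph node stroma genes summed to 0.987 to 3.69 CPM in the controls and to 20.6, 114 and 18.6 CPM under luteolin. Most of that sum was Cxcl13, at 0.529 to 3.55 CPM in the controls and 16.7, 89.6 and 16.5 CPM under luteolin. The tested genes of that list, Cxcl13 (4.14, adjusted p = 0.0922) and Ccl21a (5.51, adjusted p = 0.150), passed the study's threshold. Of 8 tested keratinocyte genes 7 passed it, led by Krt14 and Trp63 (adjusted p = 0.110 and 0.114 from edgeR). Krt14 was at 0 CPM in the controls and at 157, 2439 and 4.33 CPM under luteolin. Krt5, Krt14, Krt1 and Krtdap had 0 counts in every control. They could pass the filter on low counts only through the luteolin libraries, so a call as lower was not possible for them. Ccl21a, at 0 to 0.458 CPM, and Ly6d, at 0 to 0.129 CPM, were also near 0 in the controls. The hepatoma list summed to 369 to 427 CPM in the controls and to 305, 205 and 359 CPM under luteolin, with 1 gene at the study's threshold and 6 without control replicate 2. Most of the sum was Trf, and without it the other 9 genes came to 63.9, 132 and 46.1 CPM in the controls and 183, 79.5 and 75.9 CPM under luteolin, where the groups overlapped. Whether these lists take part in the higher values of the TCR complex genes was not tested.

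**Figure D5:**
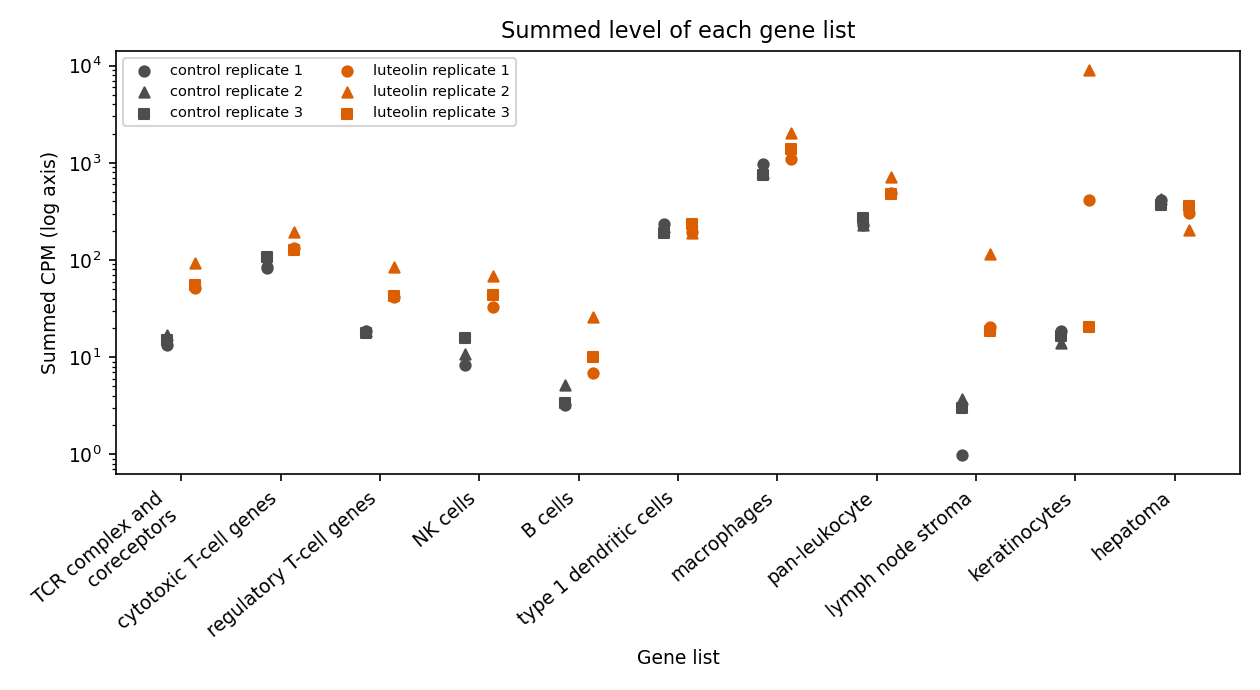
Summed CPM (log axis) of the 10 genes and of other gene lists in the 6 libraries, with control libraries in grey, luteolin libraries in orange and a marker shape for each replicate number. The 10 genes of the TCR complex and coreceptors sum to 13.3 to 16.9 CPM in the controls and 51.4 to 93.6 in the luteolin group, the sum of the type 1 dendritic cell markers, most of it Cadm1, overlaps between the groups, and the keratinocyte genes stand out in luteolin replicate 2.

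The genes with the most similar course over the 6 libraries were found by the root mean square difference between log2 CPM profiles, each centred on its own mean, and the median profile of the 10 genes. The 8 nearest of the other tested genes were Prrt1 (0.16), Ccl8 (0.17), Elfn2 (0.21), H2-Q4 (0.21), Col27a1 (0.21), Thy1 (0.23), Zbp1 (0.23) and Nlrc5 (0.24), with the difference on the log2 scale in parentheses. Of the 10 genes themselves, Cd3d (0.21) and Cd3g (0.22) lay nearest to the median profile and Cd4 (0.47) and Cd8a (0.45) farthest. Cd4 and Cd8a ranked 252 and 221 among all tested genes by this difference. Thy1, the T-cell and fibroblast surface protein Thy-1, had 21.2, 22.1 and 19.6 CPM in the controls and 68.5, 136 and 59.6 CPM under luteolin. Its log2 fold change was 2.07 (SE 0.33, adjusted p = 0.0429 in edgeR's test). The 8 genes were chosen by a profile that holds the difference between the groups. Their fold changes and p values therefore follow from the choice and are no separate result. Elfn2 lay at or under 0.598 CPM in every library.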

How the data were processed

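RNA-seq libraries of subcutaneous H22 tumours were compared between the control and the 200 mg/kg luteolin group, with 3 libraries each. The 10 genes, the other gene lists, the ratios and the promoter motifs were chosen with earlier results of these data known.

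The authors deposited estimated counts, 1 whole number per gene symbol and library, which were not normalized before deposit as far as the values show. Among values from 1 to 40, 44.8% were multiples of 4 against 25% under an even spread, so 1 unit need not be 1 read pair. The submitters' processing notes list bcl2fastq 2.0, HISAT2, StringTie and DESeq2 and the builds mm39 and rn6, without roles. The annotation and the use of strand are not given in the sources used here. Labels and paper name different extraction and library kits. All 6 columns were used.

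Counts were fitted with edgeR 4.0.16 under R 4.3.3 (TMM scaling, filterByExpr, quasi-likelihood test, two-sided, no covariates) on the whole table of 21720 symbols, of which 14963 passed the filter. Adjusted p values are Benjamini-Hochberg values over those 14963 genes. The quasi-likelihood test reports no standard error. Those given with edgeR fold changes were derived as the absolute log2 fold change divided by the square root of the F statistic. The study's threshold is p under 0.05 before adjustment together with a fold change past 1 on the log2 scale, up or down. CPM were taken over TMM-scaled library totals, and a prior count of 2 was added on the log2 scale. Library totals lay between 61081637 and 80442954. The labels do not say whether libraries came from separate mice, so p values measure the spread between these libraries. The 13 ratios were compared by exact permutation of the libraries (two-sided), where 3 against 3 cannot go below p = 0.1. Alternatives were DESeq2 1.42.0, voom of limma 3.58.1 with quality weights, other normalizations and filters, the replicate block and each library left out. Division of the values by 4, an offset fit for GC content and gene length, and 2 list sums without their most abundant gene were added after the data had been seen. The fit was tested on simulated data with known changes.

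Named in the text are the 10 genes, the 2 genes with the smallest p of each other list, the 2 most abundant genes of the hepatoma and keratinocyte lists, Ptprc, and the 8 genes nearest in profile. Other genes named were chosen after their values were seen. Some genes that this rule or the lists include are not reported here. Positions and exon lengths come from GENCODE M21 on GRCm38 and promoters from RefSeq on GRCm38.p6. The deposited table holds no positions.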

Additional observations from a re-analysis of the deposited data

How the results depend on the processing

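The 10 genes kept a positive log2 fold change and passed the study's threshold under all 15 alternatives. Among all tested genes, 7.52% to 13.6% were called higher at that threshold. The number with an adjusted p under 0.05, 1 as reported, was 10 with DESeq2 (8.67% of all tested genes called higher) and with voom (12.6%), 4 with a minimum of 10 counts (2.54%), 4 with values divided by 4 (2.41%), 6 with GC content and length offsets (3.79%), 0 with the replicate block (0.227%), and 0 to 1 with a library left out (0% to 1.82%). Under the GC and length offsets the median of all tested genes moved to -0.23 on the log2 scale. The median log2 fold change of the 10 genes was 1.69 with voom. Of the other lists' genes, 75 of 124 tested passed the study's threshold, and 58 to 80 did so under the alternatives. Some of the 75, such as Krt5 and Krt14, had 0 counts in every control. Their adjusted calls, 9 as reported, were 64 with DESeq2, 63 with voom, 4 with the replicate block, and 0 without luteolin replicate 1 or any 1 of the controls. Of the counts of single lists under the alternatives, 221 lay within 1.5 times the reported count and 49 did not. The number of ratios whose groups did not overlap was 1, was 1 to 4 with a library left out, and 3 ratios moved the same way in every numbered pair under the replicate block. Deviations from the group mean correlated at -0.20, -0.09 and 0.06 between same-numbered libraries, and at -0.12 to 0.20 between the other pairs. With 3 libraries a group, deviations from their own mean cannot decide whether the replicate numbers pair the libraries. Ratios to Cd3e changed sign with a library left out, where the values spanned -0.137 to 0.276 for Cd3d, -0.0704 to 0.501 for Cd3g, -0.00758 to 0.647 for Cd247, -0.175 to 0.499 for Cd2 and -0.0255 to 0.473 for Cd6. The causes of these shifts were not tested. Counts as low as 26, in units that need not be single read pairs, limit the control levels, and 3 libraries a group limit the exact tests.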
